A study of Mus musculus with 6 samples.

Results

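Oxoglutarate-dependent dioxygenases are iron enzymes that use oxygen and 2-oxoglutarate to hydroxylate or demethylate proteins, nucleic acids and small molecules, and release succinate. Fumarate, which builds up when fumarate hydratase is lost, resembles these metabolites and inhibits many members of the family. The family includes the JmjC histone demethylases, the TET enzymes that oxidise 5-methylcytosine, the AlkB enzymes, the prolyl and lysyl hydroxylases of collagen, and the enzymes of carnitine synthesis and phytanic acid breakdown. Expression arrays measure the transcripts of these enzymes and say nothing of their activity.

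The genes were chosen by symbol from the array's annotation, using only probe sets assigned to 1 gene. The symbols taken were Kdm2 to Kdm7 without Kdm5d, Jmjd, Tet1 to Tet3, Alkbh, P4ha, P4htm, Plod and Ogfod, with Fto, Phyh, Bbox1, Tmlhe, Asph, Riox1, Riox2, P3h1 to P3h3, Phf2 and Phf8. This gave 52 of the 18193 genes on the array. One of them, Alkbh3os1, is a non-coding transcript antisense to Alkbh3 and encodes no enzyme, so the counts below cover the other 51. Jmjd7 was measured only by a probe set that it shares with another gene and was left out. The 51 genes comprised 17 histone demethylases, 3 TET genes, 9 AlkB genes, 9 collagen hydroxylases, 10 other protein hydroxylases and 3 hydroxylases of small molecules.

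Cystic renal epithelium dissected from Fh1 knockout mice (3 samples) was compared with renal epithelium from disease-free wild-type littermates (3 samples), on Affymetrix arrays. The sources used here state neither the age of the mice nor the allele or Cre driver behind the knockout. The labels do not tie samples to separate animals, and p-values therefore set group differences only against the spread among these samples.

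Values are log2 expression values, and a call is an adjusted p under 0.05 from limma over all 18193 genes. Fh1 read 11.54, 11.60 and 11.61 in the knockout samples, against 12.41, 12.34 and 12.22 in the wild-type samples, with a log2 fold change of -0.74, SE 0.08 and limma adjusted p = 0.000396. The position of that probe set relative to the deletion is unknown here. Markers of kidney tubule were present in both groups. Proximal tubule markers averaged 10.83 to 11.05 in knockout arrays and 12.47 to 12.52 in wild-type arrays, where array medians ran from 6.20 to 6.25.

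The samples are described as sex-matched, and 1 wild-type array went against that. Xist, the RNA that silences one X chromosome in females, read 7.97, 6.27 and 5.61 in the knockout arrays, against 6.38, 11.96 and 6.25 in the wild-type arrays. The Y-linked Eif2s3y read 9.55, 9.59 and 9.54 in the knockout arrays, against 9.20, 6.20 and 8.70 in the wild-type arrays. Wild-type 2 therefore stood apart from the other 5 arrays in both genes, high for Xist and low for Eif2s3y. Counts of called members, in total and by role, are given below with and without it. All other counts are over all 6 arrays unless stated.

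Transcripts of 16 of the 51 enzymes rose and those of 10 fell, and 25 were not called. Over all genes tested, 21.6% were called higher and 27.7% lower, 49.2% in all. The members' shares were 31.4% higher and 19.6% lower. Their median log2 fold change was 0.18, beside -0.11 for all genes. All knockout values lay above all wild-type values for 23 members and below them for 11, where these patterns held for 25.7% and 37.1% of all genes (62.9% in either direction). Without wild-type 2, 20 members were higher and 9 lower. The higher ones were 11 histone demethylases, 4 AlkB genes, 3 collagen hydroxylases, 1 TET gene and 1 other protein hydroxylase. The lower ones were 4 other protein hydroxylases, 3 small-molecule hydroxylases, 1 AlkB gene and 1 collagen hydroxylase. Roles differed in the direction of their calls. Histone demethylases had no lower call, the small-molecule hydroxylases had no higher one, and the collagen and AlkB enzymes had both.

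**Figure D1:**
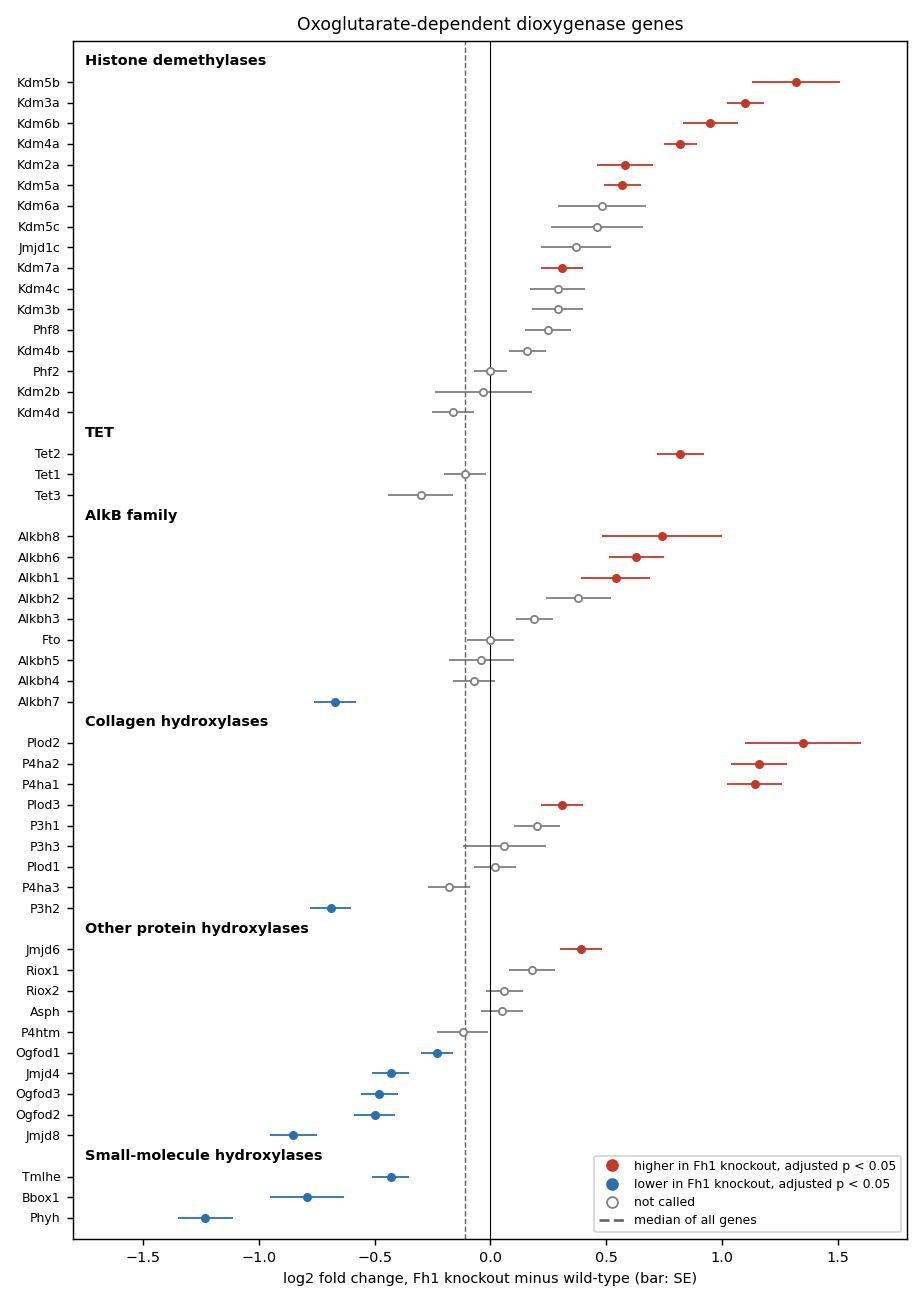
Log2 fold change (Fh1 knockout minus wild-type, x axis) of each of the 51 dioxygenase genes, grouped by role, with its standard error as a bar; filled points were called by limma, open points were not, and the dashed line is the median of all genes (-0.11). Histone demethylases reach 1.32 with no called gene below 0, whereas all 3 small-molecule hydroxylases lie below 0.

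Fibrillar and basement membrane collagens are hydroxylated on proline and lysine in the endoplasmic reticulum before the triple helix folds. Among the collagen hydroxylases 4 of 9 rose (44.4%) and 1 fell (11.1%), beside 21.6% and 27.7% of all genes. The largest rises were in Plod2, P4ha2 and P4ha1. Plod2, the lysyl hydroxylase of the telopeptides that sets the type of collagen crosslink, read 10.54, 10.44 and 10.43 in the knockout, against 9.69, 9.12 and 8.55 in the wild-type. The knockout values lay within a narrow band above a scattered wild-type group. Plod2 rose 2.55-fold (log2 fold change 1.35, SE 0.25, limma adjusted p = 0.00388), or by 1.06 on the log2 scale without wild-type 3. Its dimmer probe set rose as well (0.57). P4ha1 and P4ha2 encode catalytic subunits of collagen prolyl 4-hydroxylase and are known targets of the hypoxia-inducible factors in other cells.

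P4ha1 read 9.51, 9.36 and 9.26 in the knockout samples, against 8.23, 8.41 and 8.06 in the wild-type samples. P4ha2 read 9.57, 9.48 and 9.32 in the knockout samples, against 8.42, 8.40 and 8.09 in the wild-type samples. The groups were far apart in both genes and the folds were close, 2.21 for P4ha1 and 2.23 for P4ha2 (limma adjusted p = 0.000245 and 0.000258). The second P4ha1 probe set was called higher too, at 0.87. The third catalytic subunit, P4ha3, was dim and was not called (3.83 ± 0.09 in the knockout and 4.02 ± 0.11 in the wild-type, SD, n = 3 each).

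P3h2, the prolyl 3-hydroxylase known to act on basement membrane collagen, went the other way. Its values were 9.93, 9.86 and 9.94 in the knockout, against 10.48, 10.66 and 10.65 in the wild-type, which is 1.61-fold lower (log2 fold change -0.69, SE 0.09, limma adjusted p = 0.000618). The groups did not overlap. Plod3, a lysyl hydroxylase that also adds sugars to hydroxylysine, rose 1.24-fold with limma adjusted p = 0.025. That call was lost in 7 of 14 alternative fits, among them the fit without wild-type 2 (log2 fold change 0.29, adjusted p = 0.0552). Plod1, P3h1 and P3h3 were not called, with log2 fold changes of 0.02, 0.20 and 0.06. A dimmer probe set of Plod1 was called lower at -0.57.

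The substrates and partners of these enzymes were read beside them. Of 12 collagen chain genes 8 rose and none fell, with a median log2 fold change of 1.21, led by Col3a1 (2.76) and Col1a1 (2.39). Of 9 measured partners in collagen maturation, 4 rose and 1 fell. Serpinh1, the collagen chaperone HSP47, rose 2.42-fold and Colgalt1, a collagen galactosyltransferase, 2.34-fold, whereas the related Colgalt2 fell 2.01-fold. P4hb, the subunit shared by all prolyl 4-hydroxylase tetramers, was not called (log2 fold change -0.22, limma adjusted p = 0.127). Markers of fibroblasts and matrix rose in the same samples, 13 of 17, with a mean level of 9.48 to 10.43 in knockout arrays and 8.34 to 8.57 in wild-type arrays. That list shares Col1a1, Col1a2 and Col3a1 with the collagen chains. The part of these cells in the collagen hydroxylase result was not tested. In tissue samples such as these, a change in the number of cells of a type cannot be told apart from a change in RNA per cell.

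**Figure D2:**
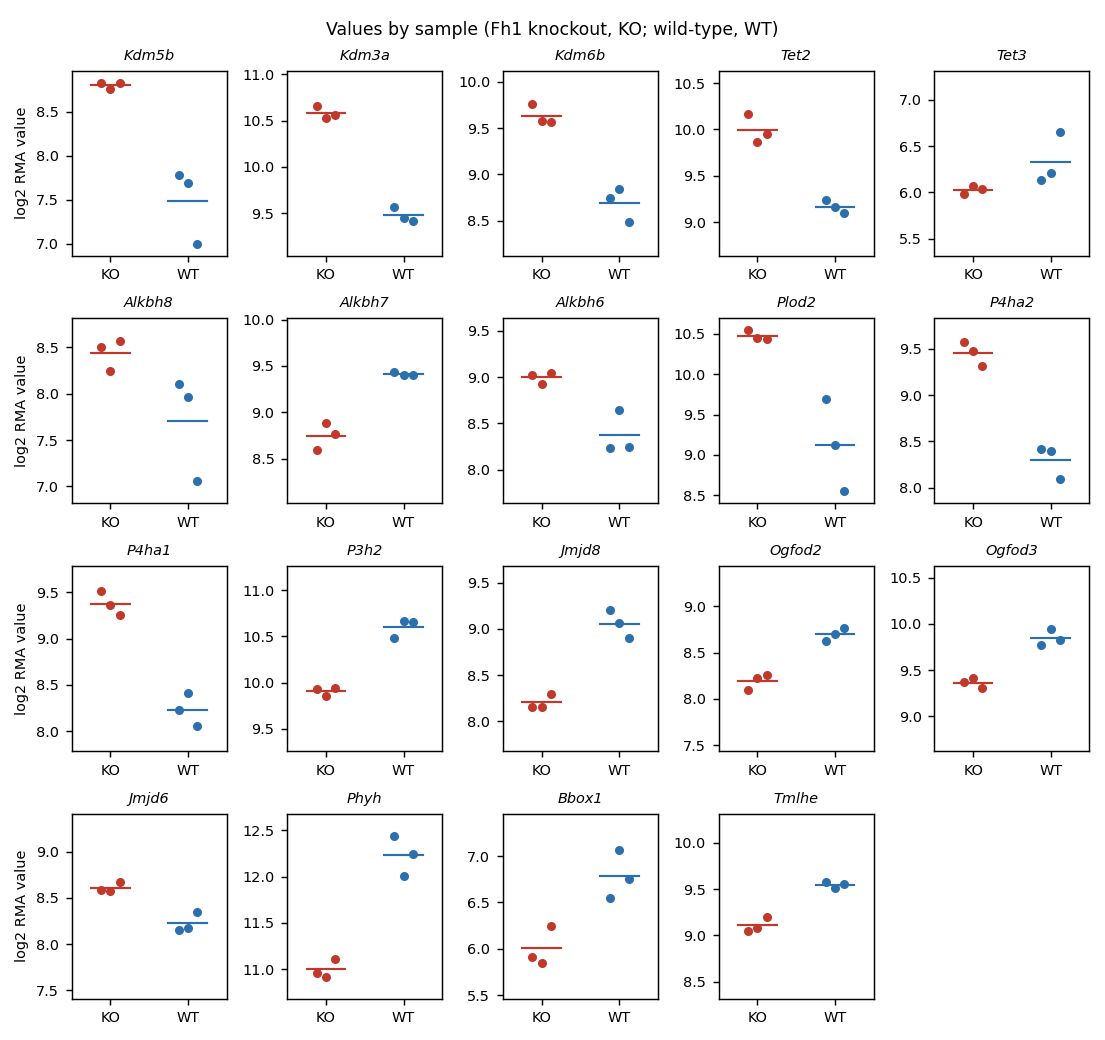
Log2 expression of 19 dioxygenase genes in every sample, with Fh1 knockout samples (KO) left of wild-type samples (WT); points are samples in the order of replicates 1, 2 and 3, and the line is the group mean. Each panel has its own y axis spanning at least 2 log2 units. The wild-type points of Kdm5b, Plod2 and Alkbh8 spread widely, with wild-type 3 lowest, and no knockout point of the 3 genes falls among them.

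JmjC histone demethylases remove methyl groups from lysines of histone tails. Of 17 measured, 7 rose (41.2%) and none fell, beside 21.6% and 27.7% of all genes. Their median log2 fold change was 0.37. Knockout values lay wholly above wild-type values in 11, a pattern held by 25.7% of all genes. Kdm5b, a demethylase of the methyl mark of active promoters, read 8.83, 8.76 and 8.83 in the knockout, against 7.78, 7.69 and 7.00 in the wild-type. The log2 fold change was 1.32 (SE 0.19, limma adjusted p = 0.00132). Wild-type 3 was the lowest array, and the other 5 arrays gave 1.07. Of the 4 Kdm5b probe sets only the brightest was called, and the 3 dimmer sets had log2 fold changes of 0.00, -0.03 and 0.07.

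Kdm3a, which removes a repressive methyl mark and is a known target of the hypoxia-inducible factors, was tight in both groups. It read 10.66, 10.53 and 10.56 in the knockout samples, against 9.57, 9.45 and 9.42 in the wild-type samples, a rise of 2.15-fold (log2 fold change 1.10, SE 0.08, limma adjusted p = 7.35e-05). Kdm6b, which removes the Polycomb mark and is induced by inflammatory signals in macrophages, read 9.76, 9.58 and 9.56 in the knockout samples, against 8.74, 8.84 and 8.48 in the wild-type samples. The groups did not overlap and the rise was 1.93-fold (limma adjusted p = 0.00057). A second Kdm6b probe set was called higher as well, at 0.48, and the dimmest read 0.26, not called.

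Kdm4a, a demethylase of repressive and elongation marks, rose 1.77-fold, with 9.01 ± 0.03 in the knockout and 8.19 ± 0.04 in the wild-type (SD, n = 3 each). Kdm2a, which binds unmethylated CpG islands, rose 1.50-fold and Kdm5a, a relative of Kdm5b, 1.49-fold. Kdm2a had 3 further probe sets called higher and 3 not called, at -0.22, -0.18 and -0.03. Kdm5a had 2 further sets called higher, and its others read 0.20, 0.19 and 0.14, not called. The dimmer set of Kdm4a read -0.03 and was not called. For Kdm7a the probe sets disagreed. The brightest rose 1.24-fold (limma adjusted p = 0.0215), the next read -0.07 and a dimmer one was called lower at -0.35. The call of Kdm7a was lost in 4 of 14 alternative fits.

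Members that did not pass lay mostly on the same side. Kdm4b and Kdm4c, both known as hypoxia-inducible, had log2 fold changes of 0.16 and 0.29 (limma adjusted p = 0.12 and 0.0683). Those of Kdm3b, Phf8 and Jmjd1c were 0.29, 0.25 and 0.37. Both dimmer probe sets of Jmjd1c were called higher, at 0.87 and 0.84. Phf2 gave a 95% interval of -0.17 to 0.18 and Kdm2b one of -0.50 to 0.45. The dimmer probe sets of Phf2 lay below 0, at -0.32, -0.43 and -0.21, and the set at -0.43 was called lower. Dimmer sets of Phf8 (-0.08 and -0.12), Kdm2b (-0.11) and Kdm3b (0.12) were not called. The wild-type values of Kdm2b were scattered, at 9.81, 8.89 and 9.25. Kdm4d was among the dimmest members at 3.97 ± 0.10 in the knockout and 4.13 ± 0.06 in the wild-type (SD, n = 3 each).

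The X-linked demethylases Kdm5c and Kdm6a, which escape X inactivation, depended on the wild-type array that stood apart. Kdm5c read 8.41, 8.31 and 8.36 in the knockout, against 7.95, 8.32 and 7.42 in the wild-type. Kdm6a read 9.24, 9.09 and 9.18 in the knockout, against 8.73, 9.10 and 8.25 in the wild-type. In both genes wild-type 2 was the highest wild-type array and reached the knockout range, and wild-type 3 was the lowest. Neither was called over all arrays (log2 fold changes 0.46 and 0.48, limma adjusted p = 0.0896 and 0.0734). Without wild-type 2 both were called, at 0.67 for Kdm5c (adjusted p = 0.0118) and 0.68 for Kdm6a (adjusted p = 0.00966). Leaving out that array brought the histone demethylases called higher to 11 of 17, adding Kdm4c and Jmjd1c too. The dimmer probe sets were divided over all arrays. Of the 8 others of Kdm5c, 2 were called higher (0.56 and 0.69) and 6 were not called, with log2 fold changes between -0.11 and 0.39. The next brightest Kdm6a set read 0.03 and a dimmer one -0.26, neither called, and the dimmest was called higher at 0.82. The part of sex in these values was not tested.

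**Figure D3:**
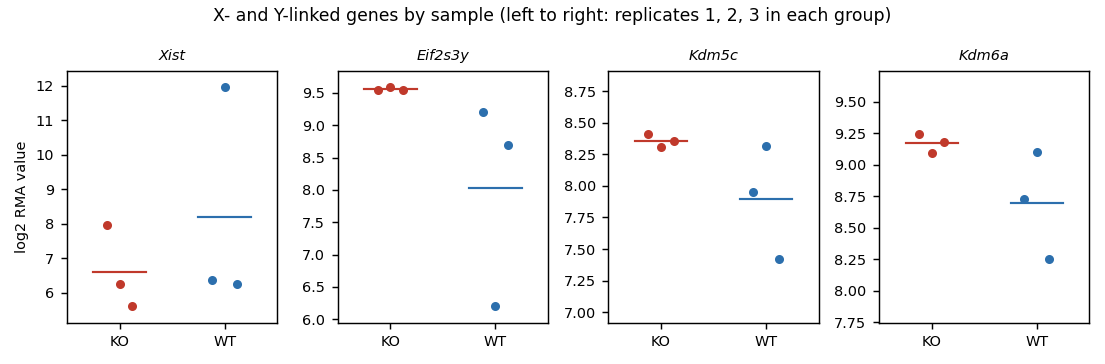
Log2 expression of Xist, Eif2s3y, Kdm5c and Kdm6a in Fh1 knockout (KO, left) and wild-type (WT, right) samples, with replicates 1, 2 and 3 from left to right in each group and the group mean as a line. Wild-type 2 is high for Xist (11.96), low for Eif2s3y (6.20), and the highest wild-type sample for Kdm5c and Kdm6a.

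Low values of wild-type 3 recurred among the demethylases. It was the lowest wild-type array for 12 of the 17 (70.6%), where 34.1% of all genes had their lowest wild-type value there. Without it 8 of the 17 were called higher and none lower. The spread was larger in the wild-type than in the knockout for 39 of the 51 members (76.5%), beside 69.0% of all genes.

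Genes listed as histone lysine methyltransferases were read beside the demethylases. Of the 18 measured, 10 rose, none fell and 8 were not called, with a median log2 fold change of 0.34. Ezh2, the Polycomb methyltransferase that opposes Kdm6a and Kdm6b, rose 2.75-fold, and Kmt2e, also in this list, 1.94-fold. Whether each listed gene encodes an active methyltransferase was not tested. The FAD-dependent histone demethylases, which do not use oxoglutarate, split. Kdm1a rose 2.26-fold and Kdm1b fell 1.34-fold. Immune markers rose in the same samples, 18 of 21 with 1 lower, at a mean level of 8.73 to 9.04 in knockout arrays and 7.43 to 7.58 in wild-type arrays. Their part in the demethylase result was not tested.

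TET enzymes oxidise 5-methylcytosine and so start its removal. Tet2 read 10.17, 9.86 and 9.95 in the knockout samples, against 9.24, 9.16 and 9.10 in the wild-type samples. The groups were apart and the rise was 1.77-fold (log2 fold change 0.82, SE 0.10, limma adjusted p = 0.00062). The second Tet2 probe set did not show it, with -0.15 and adjusted p = 0.291 over all probe sets. Tet3 read 5.98, 6.07 and 6.04 in the knockout samples, against 6.13, 6.21 and 6.65 in the wild-type samples, and was not called (limma adjusted p = 0.105). Tet1 was dim and not called (log2 fold change -0.11). Of the DNA methyltransferases, Dnmt3a rose 1.34-fold and Dnmt1 1.26-fold, and Dnmt3b was not called.

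**Figure D4:**
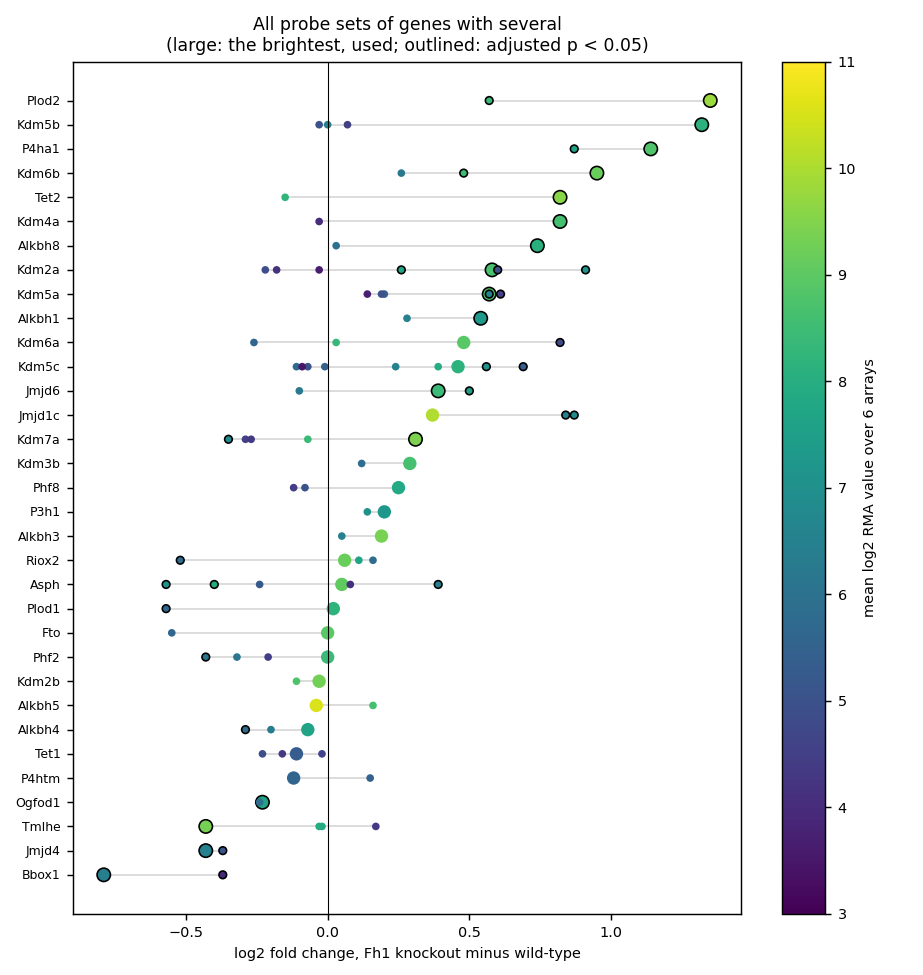
Log2 fold change (Fh1 knockout minus wild-type, x axis) of every probe set of the 33 dioxygenase genes that have several; the large point is the brightest probe set, used in the counts, colour is the mean log2 signal over 6 arrays, and outlined points were called by limma over all probe sets. Dimmer probe sets of Kdm5b and Tet2 lie near 0 while the brightest lie at 1.32 and 0.82.

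Several probe sets were present for 16 of the 26 called genes. In 8 of them another probe set was called in the same direction, and in 1, Kdm7a, another was called in the opposite direction. Of the 34 further probe sets of called genes, 22 were not called. Among genes not called, 12 further probe sets were. Asph, the aspartyl hydroxylase of epidermal growth factor domains, was the most divided, with its main set at 0.05, called sets at -0.40 and -0.57, and another called at 0.39.

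AlkB enzymes act mostly on methylated RNA and DNA. In this family 3 of 9 rose (33.3%) and 1 fell (11.1%), beside 21.6% and 27.7% of all genes. Whether these shares differ was not tested. Alkbh6, whose substrate is poorly known, read 9.02, 8.93 and 9.04 in the knockout, against 8.23, 8.64 and 8.24 in the wild-type, 1.54-fold higher (limma adjusted p = 0.00531). Alkbh8, which modifies the wobble uridine of transfer RNAs, read 8.50, 8.25 and 8.57 in the knockout, against 8.10, 7.96 and 7.06 in the wild-type. Its rise of 1.67-fold (limma adjusted p = 0.045) was lost in 8 of 14 alternative fits. Without wild-type 3 the log2 fold change was 0.41 rather than 0.74. The dimmer Alkbh8 probe set read 0.03 and was not called. Alkbh1, a demethylase of transfer RNA, rose 1.46-fold and was not called when knockout 1 was left out (adjusted p = 0.0612, log2 fold change 0.42), which left 1 AlkB gene higher. Alkbh7, a mitochondrial member, was the one that fell. It read 8.59, 8.88 and 8.76 in the knockout, against 9.44, 9.40 and 9.40 in the wild-type, 1.59-fold lower (limma adjusted p = 0.00108).

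Both demethylases of N6-methyladenosine in RNA showed no call. Fto had a 95% interval of -0.23 to 0.23 and Alkbh5 one of -0.37 to 0.29 for the log2 fold change. Of 6 genes of the methyltransferase complex that writes this mark, Mettl14 alone was called, 1.46-fold higher. The antisense transcript Alkbh3os1 read 5.25, 5.41 and 5.46 in the knockout, against 6.01, 6.01 and 5.83 in the wild-type, which is lower with limma adjusted p = 0.00226. Alkbh3 itself, a repair enzyme for alkylated nucleic acid, had a log2 fold change of 0.19 (limma adjusted p = 0.0729).

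Of the 10 other protein hydroxylases 5 fell and 1 rose, beside 27.7% and 21.6% of all genes. Whether these shares differ was not tested. Without wild-type 2 the count of those called lower was 4. Jmjd8, a JmjC protein of the endoplasmic reticulum, read 8.16, 8.16 and 8.30 in the knockout, against 9.20, 9.06 and 8.90 in the wild-type, 1.80-fold lower (limma adjusted p = 0.000484). Ogfod2 read 8.10, 8.23 and 8.26 in the knockout, against 8.62, 8.70 and 8.77 in the wild-type, 1.41-fold lower. For Ogfod3 the values were 9.37, 9.41 and 9.31 in the knockout, against 9.77, 9.94 and 9.82 in the wild-type, 1.39-fold lower. In each of the 3 genes knockout values lay wholly below wild-type values, a pattern held by 37.1% of all genes. Jmjd4, a lysyl hydroxylase of a translation termination factor, fell 1.35-fold, and its second probe set was also called lower (-0.37). Ogfod1, a prolyl hydroxylase of a ribosomal protein, fell 1.18-fold, and that call was lost in 7 of 14 alternative fits, including the one without wild-type 2 (log2 fold change -0.23, adjusted p = 0.0664).

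Jmjd6, a lysyl hydroxylase of splicing factors, was the exception. It read 8.58, 8.57 and 8.67 in the knockout, against 8.15, 8.17 and 8.35 in the wild-type, 1.31-fold higher (limma adjusted p = 0.00948). A second Jmjd6 probe set was called higher at 0.50, and the dimmest read -0.10, not called. The ribosomal hydroxylase genes Riox1 and Riox2 were not called (log2 fold changes 0.18 and 0.06). A dimmer probe set of Riox2 was called lower at -0.52, and its others read 0.11 and 0.16, not called. P4htm, the transmembrane prolyl hydroxylase, was also not called, at -0.12. Among relatives outside the group, the prolyl hydroxylase Egln3, which marks hypoxia-inducible factors for degradation, rose 3.03-fold and Egln2 fell 1.24-fold, with the other 4 of 6 not called.

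All 3 hydroxylases of small molecules were called lower, a call made for 27.7% of all genes. Phyh, the peroxisomal phytanoyl-CoA hydroxylase that starts the breakdown of phytanic acid, read 10.96, 10.92 and 11.11 in the knockout, against 12.44, 12.01 and 12.24 in the wild-type. Its fall of 2.35-fold was the largest among the 51 genes (log2 fold change -1.23, SE 0.12, limma adjusted p = 0.000217). Bbox1, which completes carnitine synthesis, read 5.91, 5.85 and 6.25 in the knockout, against 6.55, 7.07 and 6.75 in the wild-type, 1.73-fold lower (limma adjusted p = 0.00547). Tmlhe, the mitochondrial enzyme that begins carnitine synthesis, read 9.05, 9.08 and 9.20 in the knockout, against 9.58, 9.51 and 9.55 in the wild-type, 1.35-fold lower (limma adjusted p = 0.00379). Knockout values lay wholly below wild-type values in all 3, a pattern held by 37.1% of all genes. Tmlhe had 3 dimmer probe sets that were not called, and the mean of its probe sets had a log2 fold change of -0.08 (adjusted p = 0.418).

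All 6 measured genes of phytanic acid oxidation were lower, with Amacr, the racemase for branched-chain acids, 3.03-fold and Hacl1, the lyase that follows Phyh, 2.11-fold lower. Of 6 genes of carnitine synthesis and use 5 were lower, led by the carnitine transporter Slc22a5 (2.80-fold) and Aldh9a1, a dehydrogenase of carnitine synthesis (2.15-fold). Enzymes that make or remove oxoglutarate, succinate, fumarate and hydroxyglutarate were lower in 14 of 15, a count that includes Fh1. Adhfe1, a transhydrogenase that makes 2-hydroxyglutarate, fell 2.67-fold and Ogdh, of the oxoglutarate dehydrogenase complex, 2.39-fold. Idh1 was the gene not called (log2 fold change -0.04). Proximal tubule markers fell in the same samples, 20 of 21, with a median of -1.45. Distal nephron markers were lower in 11 of 14, and endothelial markers were lower in 7 of 12 and higher in 2. Their part in the fall of the small-molecule hydroxylases was not tested.

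**Figure D5:**
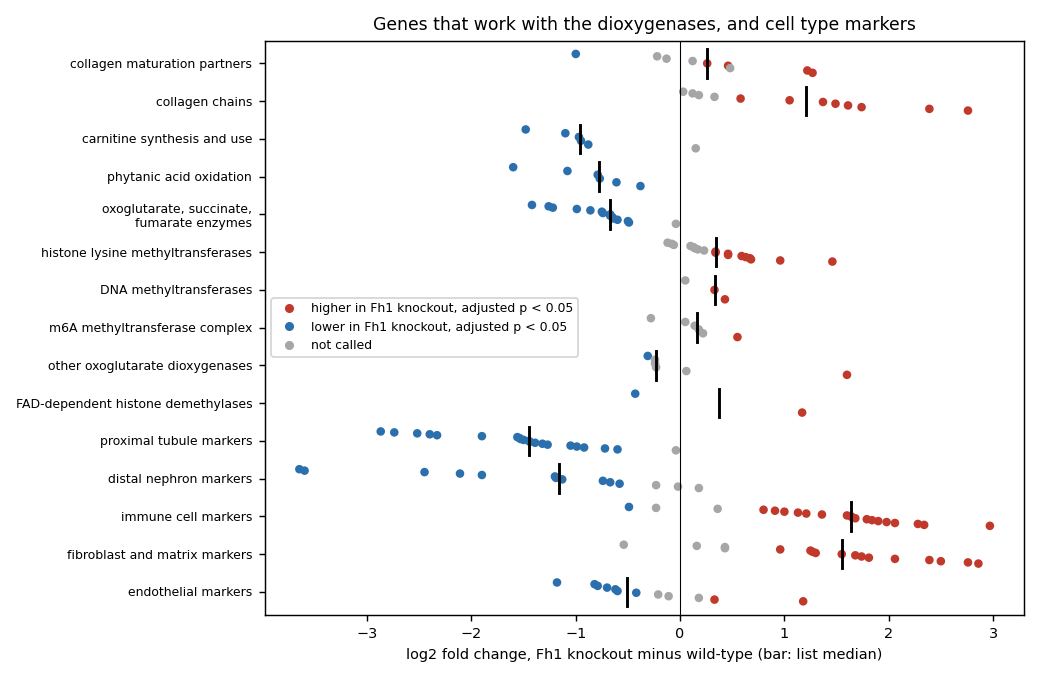
Log2 fold change (Fh1 knockout minus wild-type, x axis) of genes that work with the dioxygenases and of cell type markers, 1 point per gene and 1 row per list, with the list median as a black bar; red and blue points were called by limma. Collagen chains (median 1.21) and immune markers (1.64) lie to the right, and the carnitine, phytanic acid and proximal tubule lists (-0.96, -0.78 and -1.45) to the left.

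Promoter windows were examined for the core of the hypoxia response element because P4ha1, P4ha2 and Kdm3a are known targets of hypoxia-inducible factors. The motif searched was ACGTG on either strand, which reads CACGT on the other strand, so a CACGTG palindrome counts on both. RefSeq windows (GRCm38.p6, 250 bases before to 50 after a transcription start) were found for 41 of the 51 genes. The motif was present in 14 of the 41 (34.1%) and in 26.1% of 14452 measured genes with a window. It was present in 7 of 12 members called higher, 1 of 7 called lower and 6 of 22 not called. The share among all genes called higher or lower was not computed, so a link between motif and call was not tested. A match describes the letters only, and no binding was measured. The stretches below show 100 bases around the first match for the 3 collagen hydroxylases called higher that hold one, for Tet2 and Kdm5b, and for Alkbh7, the lower member with a match. Capitals mark the motif, and each runs 5′ to 3′ on the strand of the gene.
P4ha1: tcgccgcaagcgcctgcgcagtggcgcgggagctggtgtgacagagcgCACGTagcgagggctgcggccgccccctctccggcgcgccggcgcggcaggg
P4ha2: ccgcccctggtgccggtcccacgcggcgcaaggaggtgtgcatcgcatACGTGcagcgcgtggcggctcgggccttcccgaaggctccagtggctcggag
Plod3: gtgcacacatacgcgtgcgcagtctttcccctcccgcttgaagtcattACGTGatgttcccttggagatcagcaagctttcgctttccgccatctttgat
Tet2: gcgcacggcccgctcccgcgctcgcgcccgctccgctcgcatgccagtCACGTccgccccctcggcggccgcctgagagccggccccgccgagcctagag
Kdm5b: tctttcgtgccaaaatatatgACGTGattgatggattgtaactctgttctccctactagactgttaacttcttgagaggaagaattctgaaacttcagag
Alkbh7: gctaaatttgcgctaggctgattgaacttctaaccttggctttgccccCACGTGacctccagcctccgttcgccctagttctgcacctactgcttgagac

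These stretches lie at chr10:59323232-59323331 (plus strand) for P4ha1, chr11:54100798-54100897 (plus) for P4ha2 and chr5:136986917-136987016 (plus) for Plod3. Those of Tet2, Kdm5b and Alkbh7 lie at chr3:133544355-133544454 (minus), chr1:134559928-134560027 (plus) and chr17:56997123-56997222 (plus). The match began 16 bases before the annotated start in P4ha1 and in Tet2, 78 in P4ha2, 54 in Plod3, 229 in Kdm5b and 168 in Alkbh7. P4ha2 had a second match 11 bases after its start. Kdm7a and Jmjd6, both higher, held 1 match each, at 139 and 228 bases before the start. Of the members not called, Kdm4c had 4 matches, Kdm6a 3, P3h1 and Riox2 2 each, and Alkbh4 and Phf8 1 each. Those of P3h1 lay 31 and 19 bases before a start. Kdm3a had 3 windows with no match.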

How the data were processed

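Expression was measured in renal epithelial tissue of 3 Fh1 knockout and 3 wild-type samples. The authors deposited log2 expression values for 45101 probe sets. The tool was RMA, per the submitters' processing notes, and values between 2.90 and 14.82 show the log2 scale. RMA subtracts background, normalises arrays, gives no detection call and shrinks folds of dim genes; its version and probe set definition are not stated in the sources used. Arrays have no counting depth, and 3 samples per group limit the precision. All 6 columns were used.

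Probe sets were named from the platform annotation, with symbols updated through the RefSeq gene table of GRCm38.p6. Exactly 1 gene was given for 34945 probe sets, 932 had several and 9160 none, and 64 controls were left out. For each of 18193 genes the brightest probe set, by its mean over 6 arrays, was used. Knockout and wild-type were compared two-sided with limma 3.58.1 in R 4.3.3 (lmFit, eBayes), with no covariate and no filter. Benjamini-Hochberg adjustment ran over all genes. The fit was tested on simulated normal values, with the same SD in both groups and far fewer changed genes than were called here. That test checks the fit itself and does not measure how reliable the calls in these data are.

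The members, lists and rule for named genes were chosen with earlier results of these data known. The rule gave values by sample for the 3 most changed called members of each role and the most changed opposite one, or, where under 2 were called, the 2 with the smallest p. In companion lists it took the 2 most changed called members and the most changed opposite one; P4hb, Idh1 and Dnmt3b were named after their values were seen. Replicate numbers are shared by both groups, and same-numbered arrays had correlations of -0.10 to -0.13 in their deviations, so the numbers were not taken as pairs. Other settings tried were the mean of probe sets, brighter genes only, a trended robust prior, 2 rescalings, array weights, a replicate block, adjustment over all probe sets, stricter thresholds and each array left out. Promoter sequences are from RefSeq. Python 3.11.15 and matplotlib 3.10.9 made the tables and plots.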

Additional observations from a re-analysis of the deposited data

How the results depend on the processing

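The counts of 16 higher and 10 lower members stayed within 1.5 times in every fit, scaling and filter run. They fell to 5 higher and 1 lower when a 2-fold change was also required. At least a 2-fold change was counted for 6 of the 51 members and for 1643 of all 18193 genes. Leaving out 1 array gave 12 to 20 members higher and 9 to 10 lower. Over all genes these fits gave 3113 to 3860 higher and 3160 to 4810 lower, beside 3928 and 5031 with all arrays. With a replicate block 16 members were higher and 9 lower, and the block ended the calls of Alkbh8 and Ogfod1. Of the 26 called members, 20 kept their call in every fit run and 6 lost it in at least 1 (Alkbh1, Alkbh8, Kdm7a, Ogfod1, Plod3 and Tmlhe). With the mean of all probe sets Kdm7a read -0.13, not called, and Plod1 read -0.28, called lower; both genes have dimmer probe sets below 0. Of 342 alternative log2 fold changes of members not called, 31 had the other sign and were again not called; they belonged to 11 genes and were at most 0.24 in size. Centring arrays on the median of the tested genes moved the median of all genes to -0.19 and left 13 members higher and 11 lower; over all genes it raised the share of lower calls to 67.0%, against 56.2%. Of the 51 members, 11 lay below the median signal of all genes, among them the called Alkbh1, Bbox1 and Jmjd4. RMA gives no detection call, so whether these dimmer transcripts stood above background was not tested.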
